A study of Mus musculus with 2 samples.

Results

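The Mir302-Mir367 cluster is a run of 5 microRNA hairpins that are transcribed together, Mir302b, Mir302c, Mir302a, Mir302d and Mir367. Its members were taken as the rows of the gene tables whose stable Ensembl identifier belongs to 1 of these 5 genes, and all 5 were found among the 1973 microRNA genes listed. MicroRNA-seq, the sequencing of RNA under 30 bases, had been done on 2 libraries from the hearts of mouse embryos of strain B6NCrl at embryonic day 10.5. Replicate 1 came from a pool of 69 embryos and replicate 2 from a pool of 51, each of both sexes, with no treatment or altered gene named in the labels. There is 1 group, so levels could be compared between genes within a library and between the pools, and not between ages, tissues or conditions. Heart muscle markers were present in both libraries, since Mir208a, Mir208b and Mir499, which lie in introns of myosin heavy chain genes, together held 3.47% and 6.90% of own-strand counts in replicates 1 and 2. Of the other heart muscle markers listed, Mir1a-1 had 17 and 15 reads and Mir133a-1 had 3 and 15, and each is known to have a near-identical copy.

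A microRNA gene is transcribed as a hairpin, which is cut into a short duplex with a 5p and a 3p arm. The arm that is kept guides silencing of messenger RNAs mainly through its seed, bases 2 to 8, so that microRNAs with the same seed are thought to share many targets. The Mir302-Mir367 cluster is known as a microRNA cluster of pluripotent stem cells and of the early embryo, where it is linked to the cell cycle and to the hold on differentiation. In the embryonic heart it is known for promoting the proliferation of cardiomyocytes. The 5 genes lie on the plus strand of chromosome 3 (mm10), inside the body of Larp7, a gene for an RNA-binding protein that runs on the minus strand from 127536714 to 127553349. None of the members overlapped an exon of Larp7 in GENCODE M21, and the 2 of 4 Larp7 transcripts that span the cluster have an intron there.

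The sequences are shown because the seeds fall into 2 kinds. They were taken from RefSeq on GRCm38.p6, the assembly also known as mm10, in which all 5 hairpins and 9 mature arms of the members were matched. Each is written 5′ to 3′. In the mature arms, capitals mark the seed, and in the hairpins of Mir302a and Mir367 they mark the letters AAGUGCU or AUUGCAC.
Mir302a hairpin: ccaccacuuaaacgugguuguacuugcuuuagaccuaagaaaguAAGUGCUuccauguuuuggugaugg
Mir367 hairpin: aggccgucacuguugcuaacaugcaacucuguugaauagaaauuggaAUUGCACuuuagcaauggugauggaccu
miR-302b-3p: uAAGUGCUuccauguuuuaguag
miR-302c-3p: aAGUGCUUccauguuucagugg
miR-302d-3p: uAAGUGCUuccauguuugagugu
miR-367-3p: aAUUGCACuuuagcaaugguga
miR-302a-5p: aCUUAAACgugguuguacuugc
miR-302b-5p: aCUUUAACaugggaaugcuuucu
The letters AAGUGCU are in all 4 Mir302 hairpins. They start at base 2 of miR-302b-3p and miR-302d-3p and at base 1 of miR-302c-3p as recorded, so that the recorded seed of miR-302c-3p is shifted by 1 base. Searched on the hairpin's own strand, AAGUGCU was found in 2.39% of the 1005 RefSeq hairpins. Mir367 carries another seed, AUUGCAC, which was found in 1.09% of them.

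The Mir302 genes were well represented in the heart at this age, and Mir367 at the end of the same run was scarcely counted. The cluster as a whole held 2.79% of own-strand counts in replicate 1, with a 95% exact interval of 2.77 to 2.80 percent, and 2.20% in replicate 2, with an interval of 2.19 to 2.22 percent, or 2.49% ± 0.412 (SD, n = 2). These values rest on 115969 and 105473 reads, out of 4163656 and 4789068 own-strand counts over all listed genes. Levels are given as CPM, which are the own-strand reads of a gene per 1000000 own-strand reads of all listed genes. Reads of both arms of a hairpin are in 1 count, so arms could not be compared. In a whole heart, fewer cells of a type and less RNA per cell cannot be told apart. Ranges in parentheses after a value are exact 95% intervals. All intervals and limits speak to counting error alone, because the reads carry no stated molecular identifiers and may repeat a molecule.

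Mir302b, the first hairpin of the run (ENSMUSG00000076252.1; 127545228 to 127545301), had 32868 reads in replicate 1 and 31093 in replicate 2, or 7894 and 6492 CPM. Mir302c (ENSMUSG00000065482.1; 127545363 to 127545430) had 6078 and 5493 reads, or 1460 and 1147 CPM. Mir302a (ENSMUSG00000065552.1; 127545496 to 127545564) had 43699 and 39704 reads, or 10495 and 8291 CPM. Mir302a was therefore the highest of the cluster in both libraries, at rank 22 and rank 26 among the 1973 listed genes. Mir302d (ENSMUSG00000065447.1; 127545624 to 127545689) had 33292 and 29149 reads, or 7996 and 6087 CPM. Mir367 (ENSMUSG00000065413.2; 127545733 to 127545807) had 32 and 34 reads, or 7.69 CPM (5.26 to 10.8) and 7.10 CPM (4.92 to 9.92). It ranked 321 and 314 among the listed genes. The intervals of Mir367 lay above the limit set for a count of 0. This limit was fixed at 3 reads, or 0.721 CPM in replicate 1 and 0.626 CPM in replicate 2. It was not computed as an exact interval, unlike the ranges in parentheses.

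**Figure D1:**
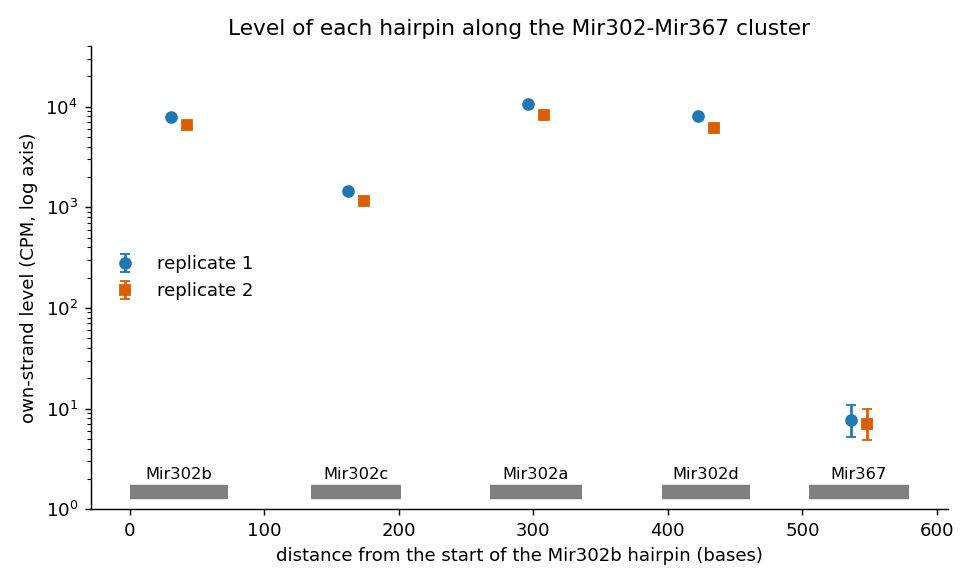
Own-strand level of each hairpin in CPM on a log axis against the distance in bases from the start of Mir302b, with grey bars for the hairpins, circles for replicate 1, squares for replicate 2 and exact 95% intervals that are visible only for Mir367. Mir302b, Mir302a and Mir302d lie between 6087 and 10495 CPM, Mir302c at 1460 and 1147 CPM, and Mir367 at 7.69 and 7.10 CPM.

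Levels did not follow the order of the hairpins along the run, as the plot of levels by position shows. Mir302c, the second hairpin, was lower than both of its neighbours in each library. Mir302b exceeded Mir302c 5.41-fold in replicate 1 (5.26 to 5.56) and 5.66-fold in replicate 2 (5.50 to 5.83), and Mir302a exceeded it 7.19-fold and 7.23-fold. Mir302a exceeded Mir302b 1.33-fold and 1.28-fold, and it exceeded Mir302d 1.31-fold and 1.36-fold. Mir302b and Mir302d could not be ordered. Mir302d was 1.01 times Mir302b in replicate 1 (0.998 to 1.03) and 0.937 times in replicate 2 (0.923 to 0.953), so the side turned between the pools. Per base of hairpin, Mir302d was the higher in both libraries, 1.14-fold and 1.05-fold, since its hairpin has 66 bases and that of Mir302b 74. The recorded arms of both genes have 23 bases, so division by hairpin length does not settle their order. An exact sign-flip test over 2 libraries allows no two-sided p under 0.5, so these ratios were not tested.

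The step from the Mir302 genes to Mir367 was the largest within the cluster. Only 43 bases separate the hairpin of Mir302d from that of Mir367, and the whole cluster spans 580 bases. Mir302d exceeded Mir367 1040-fold in replicate 1 (737 to 1521) and 857-fold in replicate 2 (613 to 1238). Mir302a exceeded it 1366-fold (967 to 1997) and 1168-fold (836 to 1686). Per base of hairpin the folds of Mir302a over Mir367 were 1484 and 1269. Mir367 made up 0.0276% of the cluster's reads in replicate 1 (0.0189 to 0.0390) and 0.0322% in replicate 2 (0.0223 to 0.0450), and these intervals overlap.

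Shared sequence bears on these counts, because reads that map to several places were not given to genes. They were 23.3% and 23.5% of all reads. Among the members, the hairpins of Mir302a and Mir302b share the longest stretch, 20 bases. Mir302d shares 17 bases with each of these, and Mir302c shares 16 with each of the other Mir302 hairpins. Read from its 5′ end, miR-302b-3p is found in a single annotated hairpin from 19 bases on, miR-302d-3p from 18 and miR-302c-3p from 17, so shorter reads of these arms have more than 1 possible source. Counts of the Mir302 genes may be too low by an amount these tables do not give, and how far this differs between the 4 was not tested. Mir367 has no such copy among the annotated microRNAs. Its longest stretch shared with a Mir302 hairpin was 9 bases, and with any of 2197 other annotated microRNA hairpins 11 bases, and both of its arms were found in a single hairpin from 9 bases on. Places outside annotated microRNAs were not searched.

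Mir367 had the lowest predicted folding energy of the 5 hairpins. By RNAfold the minimum free energy was -34.5 kcal/mol for Mir367, -31.7 for Mir302a, -28.6 for Mir302c, -27.5 for Mir302d and -23.3 for Mir302b. The median of 869 hairpins of listed genes was -33.2 kcal/mol. Per base the energy of Mir367, the longest of the 5 hairpins, was the same as that of Mir302a to 2 decimals, -0.46 kcal/mol. The share of paired bases ran from 62.2% in Mir302b to 79.4% in Mir302c, with 77.3% in Mir367. Cutting and stability of the arms were not measured.

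All counted reads of the cluster lay on its own strand. The count on the opposite strand, the strand of Larp7, was 0 for each of the 5 genes in each library. The fixed limit of 3 reads for a count of 0 is 0.721 and 0.626 CPM. Larp7 messenger RNA was not measured by this assay.

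A wide range of counts between neighbours was not particular to this cluster. Of 12 clusters with at least 3 listed genes at most 10 kb apart on 1 strand and a gene of at least 1000 CPM, 6 had a wider range and 5 a narrower one, judged by the smaller of the folds of the 2 libraries. The lowest gene of the cluster that begins with Mir17 was Mir19b-1, and Mir17 exceeded it 1237-fold in replicate 1 and 1810-fold in replicate 2. Mir19b-1 shares a stretch of 25 bases with another annotated microRNA, and Mir367 shares at most 11. The bearing of shared sequence on either count was not tested. In 4 of the 12 clusters the lowest gene shared 20 or more bases with another hairpin, and in 4 a gene had no read in at least 1 library. Each of the 6 wider clusters had at least 1 of these traits. Neither trait was seen in 5 clusters, the Mir302-Mir367 cluster among them, and of these 5 its range was the widest. The next, with Mir93 as its highest gene, had 16.1-fold and 16.7-fold. A gene with no read is itself a low count, so leaving out such clusters takes away wide ranges in advance. The place among these 5 is therefore no result about the cluster, and over all 12 clusters 6 had a wider range. The set of clusters was chosen after the values were seen, and no test was applied to it.

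**Figure D2:**
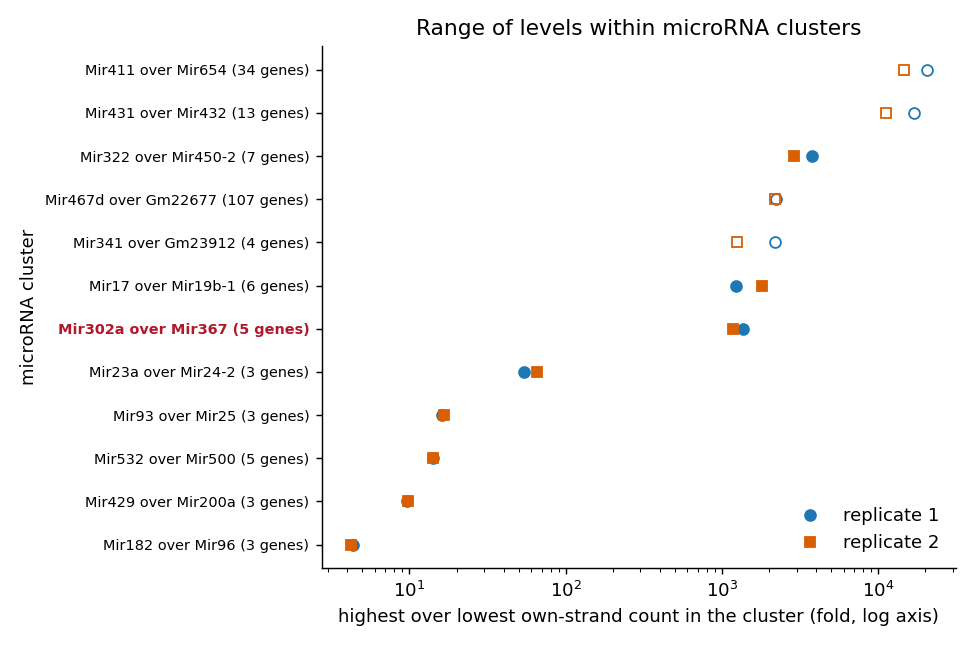
Highest over lowest own-strand count within each of the 12 microRNA clusters, as a fold on a log axis, with circles for replicate 1 and squares for replicate 2; open symbols mark clusters with a gene at 0, whose fold was computed against 3 reads. Mir302a over Mir367, at 1366-fold and 1168-fold, sits seventh from the top, with 6 clusters above it.

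Among the genes whose recorded arms carry the AAGUGCU seed, nearly all reads came from the Mir302 genes, as far as hairpin counts show it. RefSeq arms could be searched for 916 of the 1973 listed genes. Among these arms the seed was found at bases 2 to 8 in Mir302b and Mir302d and in Mir294, Mir291a and Mir295 of the Mir290-Mir295 cluster, which marks embryonic stem cells. Mir302a is not in this set, since the arm entry used for it was its 5p arm, although its hairpin holds the letters AAGUGCU. Their 3p arms are shown to let the shared and the differing letters be seen, with the seed in capitals.
miR-294-3p: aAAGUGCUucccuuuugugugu
miR-291a-3p: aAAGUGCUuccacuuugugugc
miR-295-3p: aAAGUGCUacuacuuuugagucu
Mir294 had 427 and 356 CPM in replicates 1 and 2, Mir291a 91.0 and 66.4 CPM, and Mir295 43.5 and 30.7 CPM. Mir302b and Mir302d held 96.6% of the reads of these 5 genes in replicate 1 (96.5 to 96.7) and 96.5% in replicate 2 (96.4 to 96.7). With Mir302a added by its hairpin, a choice made after the values were seen, the Mir302 genes held 97.9% in both libraries (97.8 to 98.0). The levels of both Mir302 genes lay above those of the 3 others in each library.

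The Mir290-Mir295 cluster as a whole was far below the Mir302-Mir367 cluster. Its 7 listed genes held 0.150% and 0.112% of own-strand counts, and the Mir302-Mir367 cluster exceeded it 18.6-fold in replicate 1 (18.1 to 19.1) and 19.7-fold in replicate 2 (19.1 to 20.2). Its highest genes were Mir293 with 582 and 412 CPM, Mir294, and Mir292 with 301 and 222 CPM. Mir291b had 208 and 132 reads, and Mir290a had 20 reads in each library. Each of these 7 genes was thus below Mir302c, the lowest of the Mir302 genes, and 1 of them, Mir290a, had fewer reads than Mir367.

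The same letters start at base 3 in arms of the Mir17 family, known from proliferating cells, so that its seed is offset by 1 base from that of miR-302. Its leading arms are printed to show the offset, again with bases 2 to 8 in capitals.
miR-17-5p: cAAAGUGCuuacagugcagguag
miR-20a-5p: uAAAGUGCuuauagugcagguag
The 6 counted genes of this kind were Mir17, Mir20a, Mir93, Mir106b, Mir106a and Mir20b, and with 2 listed genes at 0 they summed to 79468 CPM in replicate 1 and 49166 CPM in replicate 2. Mir302b, Mir302d, Mir294, Mir291a and Mir295, with the letters from base 2 of a recorded arm, summed to 16451 and 13033 CPM, and to 26946 and 21323 CPM with Mir302a added. Mir302b and Mir302d were each below Mir17 and Mir20a, and Mir93 was 8913 and 6517 CPM, close to Mir302b and Mir302d in both libraries.

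Mir367 stood at the bottom of the genes that share its own seed. AUUGCAC is also the seed of Mir92-1 and Mir92-2, which encode miR-92a, and of Mir363, Mir25, Mir92b and Mir32. A pair of these arms is shown beside miR-367-3p above, since the seed is common to them and the rest of the arm is not.
miR-92a-3p: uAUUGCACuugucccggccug
miR-25-3p: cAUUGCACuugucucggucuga
Mir92-1 was the highest with 6317 and 4450 CPM, followed by Mir363 with 725 and 320 CPM and Mir25 with 552 and 391 CPM. The lowest besides Mir367 was Mir32, with 213 and 156 CPM. Mir367 held 0.0899% of the reads of the 7 genes in replicate 1 (0.0615 to 0.127) and 0.125% in replicate 2 (0.0865 to 0.174). The whole Mir302-Mir367 cluster exceeded the sum of these 7 genes 3.26-fold and 3.87-fold. Mir92-1 and Mir92-2 share the arm miR-92a, and reads that map to several places were not given to genes. Their counts, and so the sum of the 7 genes, may be too low by an amount that was not tested. The folds and the share of Mir367 hold for these counts only.

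**Figure D3:**
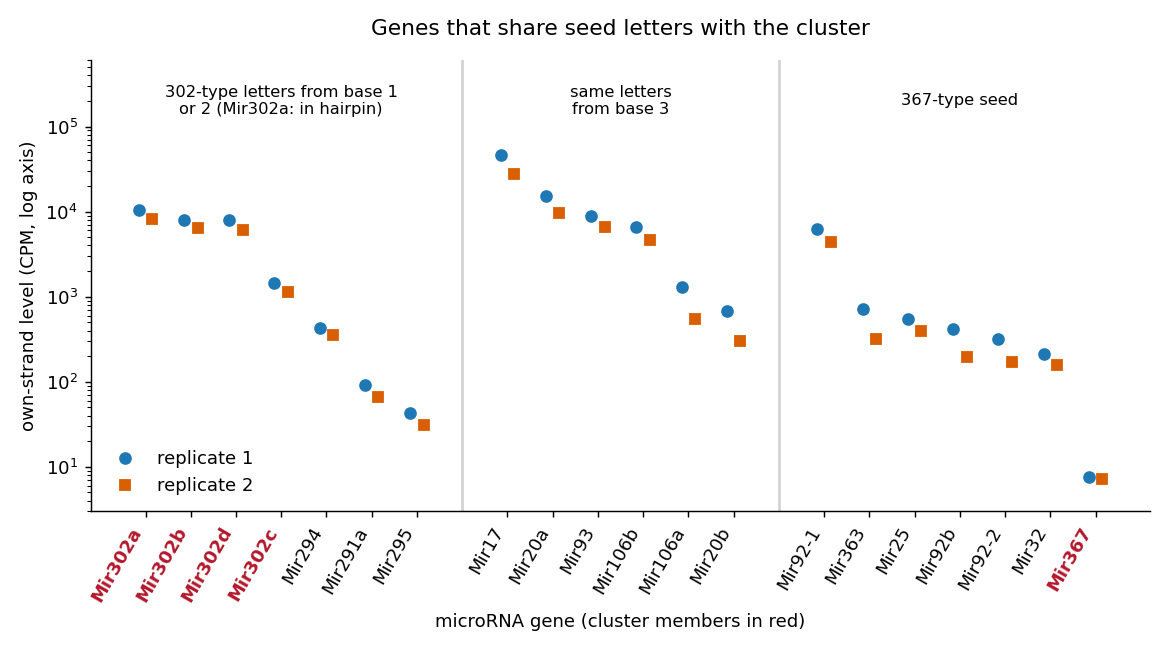
Own-strand level in CPM on a log axis of the genes that share seed letters with the cluster, with circles for replicate 1, squares for replicate 2 and cluster members in red. On the left are Mir302a, whose hairpin holds AAGUGCU, and genes with these letters from base 1 or 2 of an arm, in the middle genes with it from base 3, and on the right genes with the AUUGCAC seed, where Mir367 is the lowest at 7.69 and 7.10 CPM.

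On the 5p side no shared seed was found outside the cluster among the 916 listed genes with an arm in RefSeq. The seed CUUUAAC is common to the 5p arms of Mir302b, Mir302c and Mir302d, and miR-302a-5p carries CUUAAAC in its place. The seed CUGUUGC of miR-367-5p and the recorded seed of miR-302c-3p, AGUGCUU, were likewise found in no other of these genes. How many of the reads of these hairpins came from 5p arms is not in the tables.

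Genes outside the cluster were searched for like levels in both libraries. The members were left out of this search, although Mir302b and Mir302d were close to each other in level, as their ratios above show. Distance was taken in log2(CPM + 0.5) over the 2 libraries. The nearest non-member to both Mir302b and Mir302d was Mir423, with 7445 and 6478 CPM. Its distances from them were 0.08 and 0.14. The nearest to Mir302a was Mir487b, with 13005 and 8346 CPM, at 0.31, and the nearest to Mir302c was Mir467c, with 1369 and 1058 CPM, at 0.15. Mir103-1, with 6.72 and 7.73 CPM, was the nearest to Mir367, at 0.21. With 2 libraries this likeness is one of level only.

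Between the pools the Mir302 genes differed little after TMM scaling. After scaling by TMM, the log2 ratio of replicate 2 over replicate 1 was -0.12 for Mir302d (-0.14 to -0.10), -0.07 for Mir302a (-0.09 to -0.05) and -0.07 for Mir302c (-0.13 to -0.02). It was -0.01 for Mir302b (-0.03 to 0.01) and 0.16 for Mir367 (-0.58 to 0.90). By an exact binomial test with Benjamini-Hochberg adjustment over the 424 genes with at least 10 counts in a library, Mir302d (adjusted p = 2.56e-24), Mir302a (1.34e-10) and Mir302c (0.0111) were lower in replicate 2. Mir302b (0.601) and Mir367 (0.767) did not pass. Of all tested genes, 61.6% passed this test, and 3 of 5 members is near that share. The lower calls were 31.1% of the tested genes and the higher calls 30.4%, against 3 and 0 of the 5 members. The test asks about counting error and compares these libraries only. The common biological coefficient of variation over all tested genes was 37.2% by edgeR. After TMM scaling, 52 of the 424 genes had a smaller ratio in size than Mir302d, and with total counts 176 did.

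**Figure D4:**
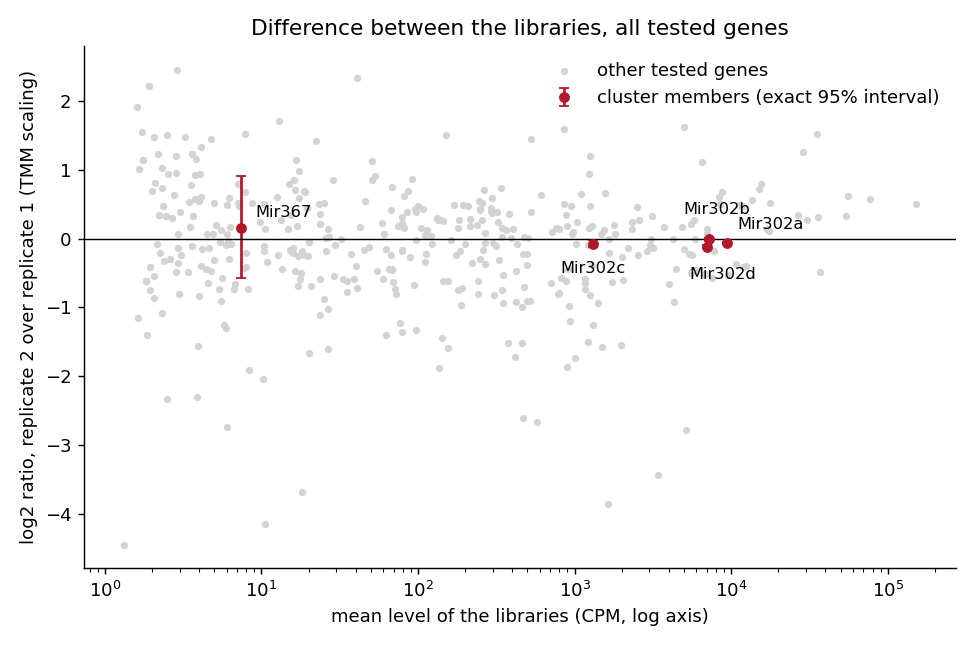
Log2 ratio of replicate 2 over replicate 1 after TMM scaling against the mean level in CPM on a log axis, for the 424 tested genes in grey and the cluster members in red with exact 95% intervals. The 4 Mir302 genes lie between -0.12 and -0.01, and Mir367 has a wide interval from -0.58 to 0.90.

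The scaling sets where these ratios lie. With total counts in place of TMM, every log2 ratio moves by -0.27, and the median of all tested genes goes from -0.01 to -0.29. Mir302d then stood at -0.39, Mir302c at -0.35, Mir302a at -0.34 and Mir302b at -0.28, and all 4 passed as lower, while Mir367 did not pass at -0.12. On that scaling 61.8% of the tested genes passed, 46.2% lower and 15.6% higher. With counts over both strands Mir302c did not pass by the same binomial test (adjusted p = 0.118), where 62.4% of 433 tested genes did, 30.7% lower and 31.6% higher.

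Within the cluster the shares of the Mir302 genes were close in the pools. The ratio of the cluster's reads to those of let-7 and of the myosin intron genes differed between them. Mir302a made up 37.7% of the cluster's reads in replicate 1 and 37.6% in replicate 2, Mir302c 5.24% and 5.21%, Mir302b 28.3% and 29.5%, and Mir302d 28.7% and 27.6%. The exact intervals of Mir302a and Mir302c overlap between the libraries, and those of Mir302b (28.1 to 28.6 against 29.2 to 29.8) and Mir302d (28.4 to 29.0 against 27.4 to 27.9) do not. The genes of the let-7 family, known to rise during differentiation, held 0.845% and 1.77% of own-strand counts, with all 9 tested of 10 listed genes higher in replicate 2 after TMM scaling, against 30.4% of all tested genes, and 8 higher with total counts, against 15.6%. The reads of the cluster were thus 3.29 times those of let-7 in replicate 1 and 1.24 times in replicate 2. Several let-7 genes have near-identical copies, and how far this bears on their counts was not tested. Against the myosin intron genes Mir208a, Mir208b and Mir499 the cluster stood at 0.802 times in replicate 1 and 0.319 times in replicate 2.

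Some markers of tissues near the heart also differed between the pools. Mir122, the main liver microRNA, held 0.308% and 0.0175% of counts, and the 5 epithelial genes of the Mir200 family 0.510% and 0.133%. The red blood cell genes Mir451a and Mir144 together held 0.107% and 0.161%, and the rise lay in Mir451a. Mir451a had 947 and 1509 CPM, and Mir144 had 120 and 103 CPM. After TMM scaling their log2 ratios were 0.95 and 0.06, and Mir144 did not pass. The 5 listed neural genes had 7 reads in each library, with 4 of them at 0. They are numbered copies of Mir9 and Mir124a, and reads that map to several places were not given to genes. How far this bears on their counts was not tested. The part of such tissue in the counts of the Mir302-Mir367 cluster was not tested. Of the 7 genes of the Mir290-Mir295 cluster, 3 were lower in replicate 2 after TMM scaling and 0 higher, against 31.1% lower and 30.4% higher over all tested genes. Their median log2 ratio was -0.18, against -0.01 over all tested genes, and with total counts 6 were lower, against 46.2% of all tested genes. Of the 7 genes with the AUUGCAC seed 6 were lower and 0 higher, against the same 31.1% and 30.4%, with a median of -0.23, and Mir367 was the gene that did not pass.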

How the data were processed

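The small RNA of mouse embryo hearts at embryonic day 10.5 was sequenced in 2 libraries. The values are raw read counts per microRNA gene as deposited by the authors, made from 1 alignment file per library on mm10 with GENCODE M4, per the README files deposited with them. For the aligner and the trimming, nothing is given in the sources used here. Each table gives counts over both strands, on the gene's strand and on the opposite strand, and own-strand counts were used. Rows that name no gene, 58.5% and 56.5% of reads, were left out of totals. The submitters' labels call the libraries biological replicates from separate pools, and their spread also holds differences of preparation.

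Symbols, positions and hairpins came from GENCODE M21 on the same assembly (1894 of 1973 identifiers matched), and printed sequences from RefSeq, whose table held hairpins for 869 listed genes. Intervals are exact (Clopper-Pearson, 95%, scipy 1.17.1). TMM scaling and the common dispersion came from edgeR 4.0.16, DESeq2 1.42.0 gave alternative size factors, and RNAfold 2.7.2 folded hairpins. Log2 ratios of the libraries add a prior count of 0.5. The replicate test was tested on simulated data. These held counting error and no spread between pools, so they do not give its rate of false calls in these libraries. Named are the 5 members and the genes found to share a seed with a member among the 916 listed genes with a RefSeq arm. The Mir290-Mir295 cluster, the nearest non-member gene to each member by level, and tissue markers are named too. The Mir17 family and the comparison of clusters were added after values were seen. The members and lists were chosen with earlier results of these data known.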

Additional observations from a re-analysis of the deposited data

How the results depend on the processing

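Settings changed were the strand counted, the scaling, the filter, the prior count, division by hairpin length and the use of either replicate alone. The cluster's share of counts was 2.93% without the most abundant gene, Mir335, in the total, and 2.20% to 2.79% with 1 replicate left out. With total counts, 66 genes were higher in replicate 2, against 129 with TMM, and the log2 ratio of Mir367 turned to -0.12. That of Mir302b turned to 7.77e-05 with DESeq2 size factors and to 0.019 with both strands, without passing in either. The log2 ratio of Mir302d over Mir302b, -0.037 on average, turned to 0.13 per base of hairpin and ran from -0.093 to 0.018 with 1 replicate left out. Counting the letters AAGUGCU anywhere in an arm, a setting added after the values were seen, gave 8.63% of counts against 1.47% for the seed at bases 2 to 8. Both leave out Mir302a, and with it they were 9.57% and 2.41%. Most of the wider share came from genes of other seeds. Those with the letters from base 3, the Mir17 family among them, summed to 64317 CPM on average. Mir18, with the letters from base 9, had 5960 CPM. With genes up to 50 kb apart taken as a cluster, also added later, Mir302a over Mir367 ranked 6 of 13 by range, against 7 of 12. With 32 and 34 reads, counting error limits any statement on a difference of Mir367 between the pools. No paired analysis was possible because the design has 1 group, and leaving out a replicate gives no test between libraries.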
